A study of Saccharomyces cerevisiae with 6 samples.

Results

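The genes described here encode the enzymes that carry glucose to ethanol in budding yeast (Saccharomyces cerevisiae), the glycerol branch beside them and 3 transcription factors that act on them. They were chosen by gene name from a list of 32, each read at its brightest probe set among those annotated to exactly 1 gene. Such a probe set existed for 31 of the 32, and all 31 passed the signal filter, out of 5656 genes with a single-gene probe set and 6808 probe sets tested. TDH2, a glyceraldehyde-3-phosphate dehydrogenase gene, was read only together with its copies.

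The wild-type group held 3 arrays of yeast with wild-type histone H3. The mutant group held 3 arrays of yeast carrying H3 K4,36,79R, in which arginine replaces the lysines at positions 4, 36 and 79. All cultures grew in selective galactose medium, then spent 6 h in selective glucose medium, which per the series design shuts off wild-type H3, so that mutant cells rely on the substituted form. The labels give no further genotype, and effects of strain background or plasmids cannot be told apart from those of the substitutions. The study asks which genes depend on these lysines.

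In yeast on glucose, most sugar is broken down by glycolysis and fermented even in air: pyruvate is decarboxylated to acetaldehyde and reduced to ethanol, which restores the oxidised cofactor that glycolysis needs. Several steps have a major isoenzyme, made in large amounts on glucose, and minor ones that are made under other conditions. The activators Gcr1 and Gcr2 act with Rap1 at the promoters of the major genes. The substituted lysines carry methyl marks placed during transcription, by Set1 at lysine 4, Set2 at lysine 36 and Dot1 at lysine 79.

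Values below are scaled signals, meaning the deposited intensities after each array was brought to the same trimmed mean of 500. Differences are mutant minus wild type on the log2(signal + 16) scale, tested with limma over all 6808 probe sets. A call is a Benjamini-Hochberg adjusted p under 0.05. The signal of a probe set also depends on its probes, so genes are compared by their differences and not by their signals. Correlations between arrays on the log2 scale were 0.985 to 0.989 within the wild type and 0.964 to 0.983 within the mutant. The 2 tested probe sets shared by the H3 genes HHT1 and HHT2 disagreed, at 33.3% and 93.1% of the wild-type mean in the mutant. The galactose genes GAL7 and GAL10 had low signals throughout, with means over the 6 arrays of 92.7 and 108.6, and GAL1 lay below the filter at 33.2. Genes specific to mating type a were bright and those specific to mating type alpha dim in both groups, at mean signals of 562.9 to 3733 over 5 genes and 52.6 to 162.7 over 3 genes. All 5 of the a-specific genes had a lower mutant mean (median difference -0.44, 0 called, 3 at an unadjusted limma p under 0.05). So had all 3 alpha-specific genes (median difference -0.20, 0 called, 0 at such a p). Over all probe sets, 47.5% had a lower mutant mean, 1.35% were called lower and 8.92% were lower at such a p. The part of these lower means in the results below was not tested. As deposited, the trimmed means of the arrays were 123.8 to 123.9 in the wild type and 95.0 to 110.0 in the mutant. The arrays read RNA relative to the rest of each sample, so fewer cells expressing a gene and less of its RNA per cell cannot be told apart.

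Of the 31 genes, 1 was called lower in the mutant and 0 higher, where 1.35% and 0.896% of all probe sets tested were called lower and higher. The called gene was GPM2, a homologue of the phosphoglycerate mutase GPM1. At an unadjusted limma p under 0.05, 8 genes were lower and 0 higher, beside 8.92% and 10.7% of all probe sets. These 8 were the minor genes GPM2, PYK2 and ADH5, the hexokinase HXK2, both phosphofructokinase subunits PFK1 and PFK2, the kinase PGK1 and the glycerol-branch gene GPD1. Leaving out wild-type replicate 1, wild-type replicate 3 or mutant replicate 3 lowered the count of 8 to 3, 4 and 5. The share of all probe sets fell in these fits as well, from 8.92% to 5.86%, 6.11% and 8.2%. Omitting any other array kept the count at 8. In the fit that lacked wild-type replicate 1, 1 of the genes was higher at such a p. On the deposited scale the count of lower genes was 18, beside 27.6% of all probe sets. The mutant mean on the log2 scale was lower for 24 of the 31 genes, against 47.5% of all probe sets. The median difference was -0.13 over the 31 genes and 0.02 over all probe sets. Their individual differences ran from -0.81 to 0.36, with a median SE of 0.14.

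**Figure D1:**
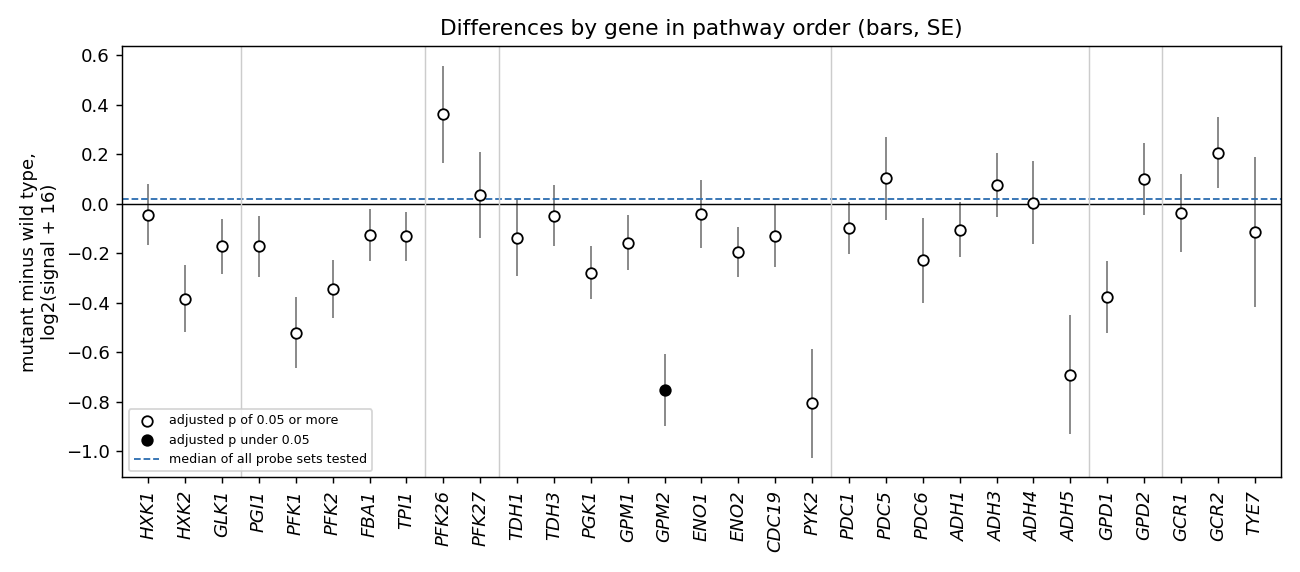
Mutant minus wild-type difference on the log2(signal + 16) scale for the 31 genes in pathway order, with bars of 1 SE from limma (3 arrays per group). Vertical lines part the steps, the dashed line is the median of all probe sets tested (0.02), and the filled point is GPM2, the one gene called; the lowest point is PYK2 at -0.81 and the highest PFK26 at 0.36.

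The 3 wild-type values of GPM2 were 148.7, 161.9 and 133.7, and the 3 mutant values were 84.8, 81.7 and 77.1. The groups were well apart and the mutant arrays lay close together. The wild-type mean was 148.1 ± 14.1 (SD, n = 3) and the mutant mean 81.2 ± 3.85 (SD, n = 3), which is 54.8% of it. GPM2 fell by 0.75 in log2 units (SE 0.15, limma adjusted p = 0.0304). Its mean signal over all arrays, 114.6, was the lowest of the 31 genes. It lay near those of GAL7 and GAL10 (92.7 and 108.6) and within the range of the dim alpha-specific genes (52.6 to 162.7). Signals also depend on the probes and no detection calls were used, so the share of background in the GPM2 signal was not tested. The product of GPM2 resembles the enzyme that interconverts 3-phosphoglycerate and 2-phosphoglycerate, and its own share in that step is not clear. Its call was lost without wild-type replicate 1 (limma adjusted p = 0.138), wild-type replicate 2 (0.106), wild-type replicate 3 (0.0861), mutant replicate 1 (0.0977) or mutant replicate 3 (0.0856), while the difference stayed between -0.82 and -0.69. It was also lost with no signal filter (adjusted p = 0.0604).

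GPM1, the phosphoglycerate mutase that carries the glycolytic flux, differed by -0.16 (SE 0.11, limma adjusted p = 0.468), with overlapping groups. Its wild-type mean was 10583 ± 944 (SD, n = 3), and its mutant mean 9486 ± 759 (SD, n = 3). The ratio of GPM2 to GPM1, set to a wild-type mean of 0, was -0.06, 0.27 and -0.21 in log2 units on the wild-type arrays, and -0.62, -0.45 and -0.72 on the mutant arrays. The ratio was lower on every mutant array than on any wild-type array, a difference of -0.60 with an exact two-sided permutation p = 0.1, the smallest that 3 against 3 arrays allow. In the gene table of assembly R64, GPM2 lies next to GPD1, described further on.

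Glucose is first phosphorylated by a hexokinase or glucokinase. HXK2, the hexokinase used on glucose, had signals of 5002, 4454 and 5131 on the wild-type arrays, and 3777, 4323 and 3145 on the mutant arrays. Every mutant value lay below every wild-type value, though mutant replicate 2 was close to wild-type replicate 2. HXK2 differed by -0.38 (SE 0.14) and was not called (limma adjusted p = 0.166). HXK1, the isoenzyme that glucose represses, differed by -0.04 (SE 0.12) with overlapping groups. GLK1, the glucokinase, gave 2743, 2475 and 2704 on the wild-type arrays, and 2342, 2261 and 2418 on the mutant arrays, a narrow gap, and differed by -0.17 (SE 0.11, limma adjusted p = 0.424). A second probe set, annotated to both GLK1 and the reading frame YCL042W, showed a wider gap, from 1324 ± 189.1 to 764.9 ± 242.3 (SD, n = 3), and differed by -0.82 (SE 0.23, limma adjusted p = 0.10). The GLK1 probe sets therefore gave different sizes, and RNA of YCL042W cannot be told apart from GLK1 at the second one.

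Among the 5 genes of the steps from glucose 6-phosphate to the triose phosphates, the largest differences were at phosphofructokinase, the committed step, whose enzyme is built from the subunits encoded by PFK1 and PFK2. PFK1 gave 4581, 4228 and 4735 on the wild-type arrays, and 3689, 3261 and 2568 on the mutant arrays. The groups did not overlap, the mutant mean was 70.3% of the wild-type mean, and the difference was -0.52 (SE 0.14, limma adjusted p = 0.0964). PFK2 gave 4674, 4164 and 4552 on the wild-type arrays, and 3502, 3863 and 3180 on the mutant arrays, also without overlap, and differed by -0.35 (SE 0.12, limma adjusted p = 0.148). Neither subunit was called on equal trimmed means. On the deposited scale, where the mutant arrays carry lower totals, PFK1 differed by -0.77 (limma adjusted p = 0.0472). The ratio of PFK2 to PFK1 overlapped between the groups (difference 0.18, exact permutation p = 0.4).

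The other upper enzymes differed little. PGI1, phosphoglucose isomerase, differed by -0.17 (SE 0.12), FBA1, the aldolase, by -0.13 (SE 0.10) and TPI1, triosephosphate isomerase, by -0.13 (SE 0.10). In each the groups overlapped. PFK26 and PFK27 encode the kinases that make fructose 2,6-bisphosphate, an activator of phosphofructokinase. PFK26 gave 362.8, 215.9 and 336.0 on the wild-type arrays, and 354.5, 367.5 and 444.3 on the mutant arrays. Its difference of 0.36 (SE 0.20, limma adjusted p = 0.348) was the highest among the 31 genes, but wild-type replicate 2 stood below the other 5 arrays, and the difference was 0.14 without it. PFK27 differed by 0.04 (SE 0.17), with a sign that turned on the deposited scale (-0.20) and with quantile normalization (-0.0056).

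**Figure D2:**
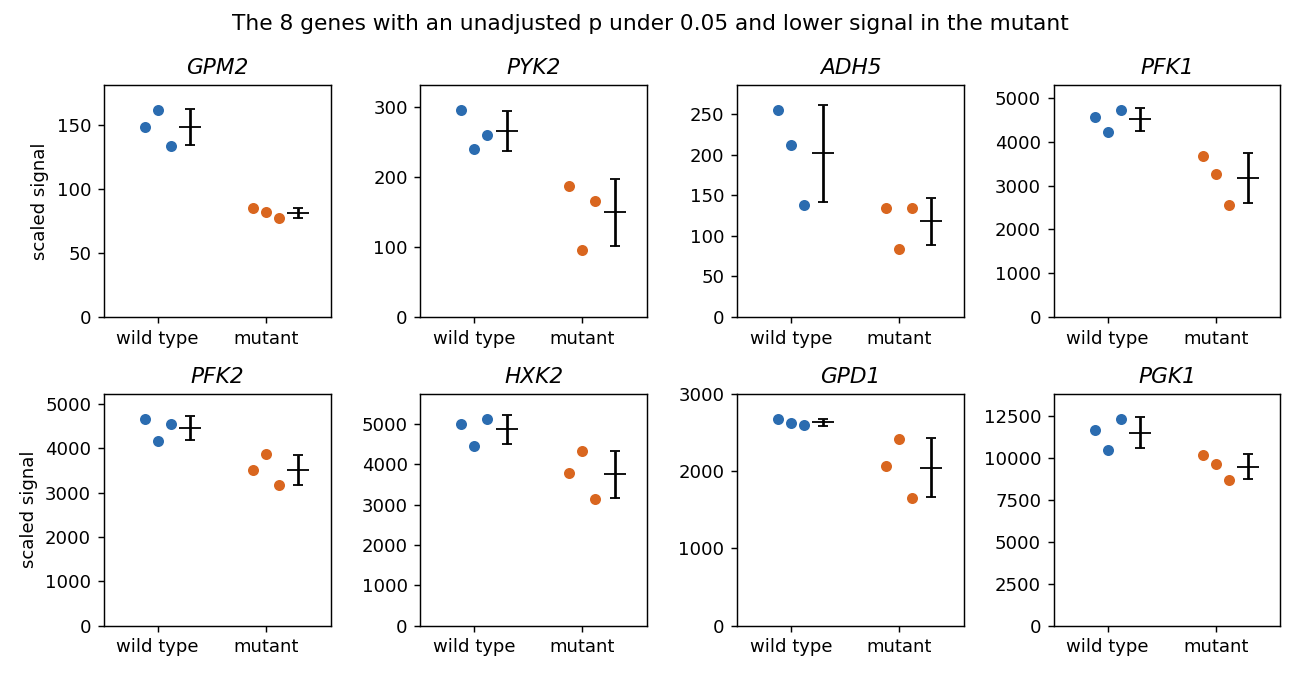
Scaled signal on each array (points) for the 8 genes with an unadjusted limma p under 0.05, with the mean and SD of 3 arrays beside them; axes start at 0. All 8 panels show every mutant array (orange) below every wild-type array (blue), with the narrowest gap in ADH5 (137.7 against 134.9).

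In the lower part of the pathway all 9 genes measured had a lower mutant mean, 1 of them called, but TDH3 and ENO1 turned to 0.05 and 0.04 with quantile normalization. PGK1, phosphoglycerate kinase, gave 11697, 10502 and 12359 on the wild-type arrays, and 10162, 9641 and 8676 on the mutant arrays. The groups did not overlap, and the difference was -0.28 (SE 0.11, limma adjusted p = 0.194). ENO2, the main enolase on glucose, also had no overlap, at 10795 ± 932 against 9410 ± 298 (SD, n = 3), and differed by -0.19 (SE 0.10, limma adjusted p = 0.323). ENO1, the other enolase, differed by -0.04 (SE 0.14) and CDC19, the main pyruvate kinase, by -0.13 (SE 0.13), both with overlapping groups. Wild-type replicate 2 was the lowest of the 6 arrays for ENO1 and CDC19.

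Glyceraldehyde-3-phosphate dehydrogenase is made from TDH1, TDH2 and TDH3, of which TDH3 is the main form and TDH1 is linked to slow growth. TDH1 differed by -0.14 (SE 0.15) and TDH3 by -0.05 (SE 0.12), neither called. The probe set shared by TDH2 and TDH3 differed by 0.02 (SE 0.13), and the one shared by all 3 genes by -0.10 (SE 0.11). The probe set shared by ENO1 and ENO2 differed by 0.05 (SE 0.13), against -0.19 at the ENO2 probe set. These copies are near-identical, so the single-gene values of TDH3, ENO1 and ENO2 may include signal from their copies. TDH2 alone was not measured.

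PYK2 encodes a second pyruvate kinase, repressed by glucose and not needing the activator on which the main enzyme depends. Its signals were 296.1, 239.8 and 260.1 on the wild-type arrays, and 187.0, 95.4 and 166.4 on the mutant arrays. The groups were apart, with mutant replicate 2 the lowest. PYK2 had the largest difference of all 31 genes, -0.81 (SE 0.22), and was not called (limma adjusted p = 0.0947). On the deposited scale it was called lower (limma adjusted p = 0.0328). On that scale the median of all probe sets was -0.22, and 372 of 6680 were called lower, against 92 of 6808 on equal trimmed means. The ratio of PYK2 to CDC19 was lower on all 3 mutant arrays than on any wild-type array (difference -0.68, exact permutation p = 0.1).

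Pyruvate decarboxylase turns pyruvate into acetaldehyde. PDC1, the main form, differed by -0.10 (SE 0.10), PDC5 by 0.10 (SE 0.17) and PDC6, a weakly expressed form, by -0.23 (SE 0.17), all with overlapping groups. The sign of PDC5 turned on the deposited scale (-0.15). The mutant arrays were more spread than the wild-type arrays for all 3 genes, with coefficients of variation of 9.25%, 22.2% and 23.1% against 2.42%, 7.87% and 8.63%. Over all 31 genes the median coefficient of variation was also higher in the mutant, at 12.5% against 8.63% in the wild type. Only in the lower part of the pathway was the median lower in the mutant, at 6.52% against 10.8% over 9 genes.

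Alcohol dehydrogenase makes ethanol. ADH1, the main cytosolic form, differed by -0.10 (SE 0.11), the mitochondrial form ADH3 by 0.08 (SE 0.13) and ADH4 by 0.0045 (SE 0.17), none of them called. On the deposited scale ADH3 and ADH4 stood at -0.17 and -0.24. ADH5, a further alcohol dehydrogenase, gave 255.3, 211.9 and 137.7 on the wild-type arrays, and 134.9, 83.7 and 134.5 on the mutant arrays. Wild-type replicate 3 was nearly level with mutant replicates 1 and 3, so the groups were separated by a margin far below the spread within them. ADH5 differed by -0.69 (SE 0.24, limma adjusted p = 0.159).

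The glycerol branch takes dihydroxyacetone phosphate out of glycolysis. GPD1, the glycerol-3-phosphate dehydrogenase induced by osmotic stress, gave 2680, 2617 and 2591 on the wild-type arrays, and 2064, 2416 and 1656 on the mutant arrays. The coefficient of variation was 1.73% over the wild-type arrays and 18.6% over the mutant arrays, and the groups did not overlap. GPD1 differed by -0.38 (SE 0.15, limma adjusted p = 0.196). GPD2, the isoenzyme linked to growth without oxygen, differed by 0.10 (SE 0.14) with overlapping groups, and by -0.14 on the deposited scale. The ratio of GPD2 to GPD1 was higher on every mutant array than on any wild-type array, by 0.48 on the log2 scale (exact permutation p = 0.1).

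Of the transcription factors, GCR1 differed by -0.04 (SE 0.16), GCR2 by 0.21 (SE 0.14) and TYE7, a helix-loop-helix activator of glycolytic genes, by -0.11 (SE 0.30), with limma adjusted p of 0.465 to 0.920. GCR2 gave 196.3, 194.6 and 219.7 on the wild-type arrays, and 220.9, 272.5 and 220.9 on the mutant arrays. Its groups did not overlap, by a margin far smaller than the spread within either group, and its difference was -0.03 on the deposited scale. TYE7 had the widest spread of the 31 genes, at 147.4, 72.0 and 212.4 in the mutant. Its 3 wild-type values, 152.7, 166.3 and 119.5, lay inside that range.

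**Figure D3:**
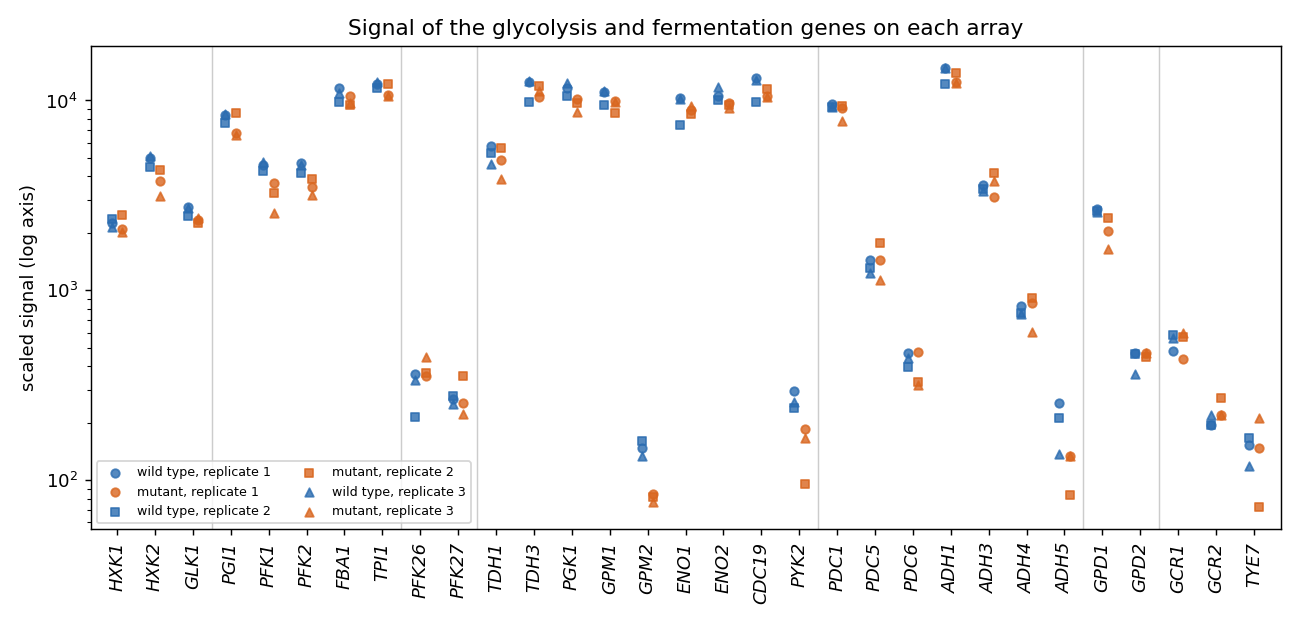
Scaled signal on each of the 6 arrays for the 31 genes in pathway order (log axis; blue wild type, orange mutant, marker shape the replicate number; vertical lines part the steps). Mean signals run from 114.6 for GPM2 to 13410 for ADH1, and the wide gaps between groups are in GPM2, PYK2 and PFK1.

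Across the pathway, the groups did not overlap in 10 genes with lower and 1 gene with higher mutant values, where 11.5% and 14.3% of all probe sets tested had no overlap in these directions. The 10 were HXK2, GLK1, PFK1, PFK2, PGK1, GPM2, ENO2, PYK2, ADH5 and GPD1, and the 1 was GCR2. By array, the median deviation of the 31 genes from their wild-type means was -0.15, -0.05 and -0.22 in mutant replicates 1, 2 and 3. Wild-type replicate 2 stood at -0.09, below mutant replicate 2, and wild-type replicates 1 and 3 at 0.07 and 0.03. The median deviation of all probe sets was between -0.01 and 0.06 on every array. Mutant replicate 3 had the lowest value of the 6 arrays for 16 of the 31 genes. This array also had the lowest deposited trimmed mean, 95.0, against 110.0 and 107.5 in mutant replicates 1 and 2. A link of that to its low values was not tested. Without wild-type replicate 1 the median difference of the 31 genes was -0.08 and without wild-type replicate 2 it was -0.20.

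The genes were also grouped by brightness. The boundaries of signal used here were chosen after the values were seen. The 13 genes with a mean signal of at least 4000 all had a lower mutant mean, with a median difference of -0.13. Of the 327 other probe sets that bright, 73.4% had a lower mutant mean, with a median of -0.07, and 1 was called, higher in the mutant. Among the 11 genes with signals of 400 to 4000, 7 had a lower mean (median -0.04), against 43.8% of other probe sets (median 0.04), and PFK1, PFK2 and GPD1 were among these. Of the 7 genes under 400, 4 had a lower mean (median -0.11), against 47.4% of other probe sets (median 0.02). Quantile normalization, which gives all arrays the same distribution of signals, took the median of the 31 genes from -0.13 to -0.07, while 24 genes still had a lower mean and 8 were still lower at an unadjusted p under 0.05. The part of the signal range in the lower medians was not tested further.

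**Figure D4:**
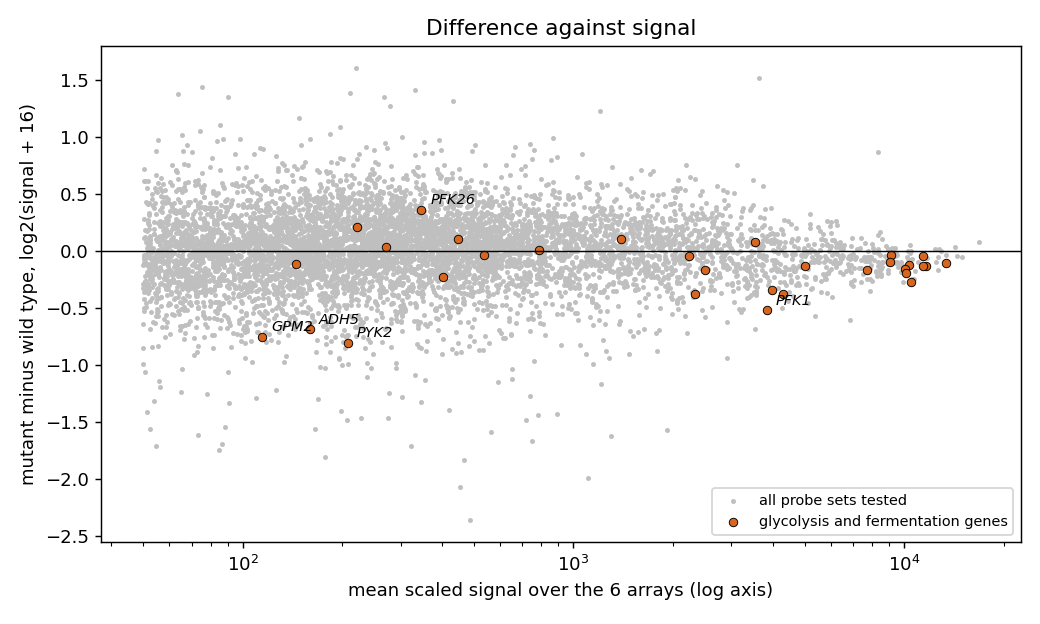
Mutant minus wild-type difference against the mean scaled signal (log axis) for all 6808 probe sets tested (grey) and the 31 genes (orange). At signals of at least 4000 the cloud is shifted below 0 (median of other probe sets -0.07, 73.4% of them below 0). The 13 bright genes lie at -0.38 to -0.04 within it.

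The major and minor isoenzymes were compared by the ratio of their signals on each array, which removes the scaling of the arrays apart from the offset. Of 15 pairs listed, 14 could be tested, and TDH2 against TDH3 could not. The ratio did not overlap between the groups in 4 pairs, 2 lower and 2 higher, where 11.5% and 14.3% of single probe sets had no overlap in these directions. GPM2 to GPM1 and PYK2 to CDC19 were lower in the mutant, and HXK1 to HXK2 and GPD2 to GPD1 were higher. The ratio of HXK1 to HXK2 stood at -0.04, 0.19 and -0.15 on the wild-type arrays, and 0.25, 0.30 and 0.47 on the mutant arrays, a difference of 0.34. In this pair and in GPD2 to GPD1, the gene with the lower signal in the mutant was HXK2 or GPD1, while HXK1 and GPD2 had overlapping groups. Each of the 4 pairs had an exact two-sided permutation p = 0.1, and 0.35 after adjustment over the 14 pairs, so none passes the threshold and none could in this design. Neither direction was common to the minor forms: their ratio to the major form was higher in the mutant for 7 pairs and lower for 6, leaving aside the subunit pair PFK2 to PFK1. The 6 included PFK27 to PFK26 (difference -0.32), where the choice of PFK27 as the minor form was not tested. Such ratios do not remove shifts that depend on signal. Other probe sets of at least 4000 had a median difference of -0.07, and those of 400 to 4000 a median of 0.04. The part of such shifts in the ratios was not tested.

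**Figure D5:**
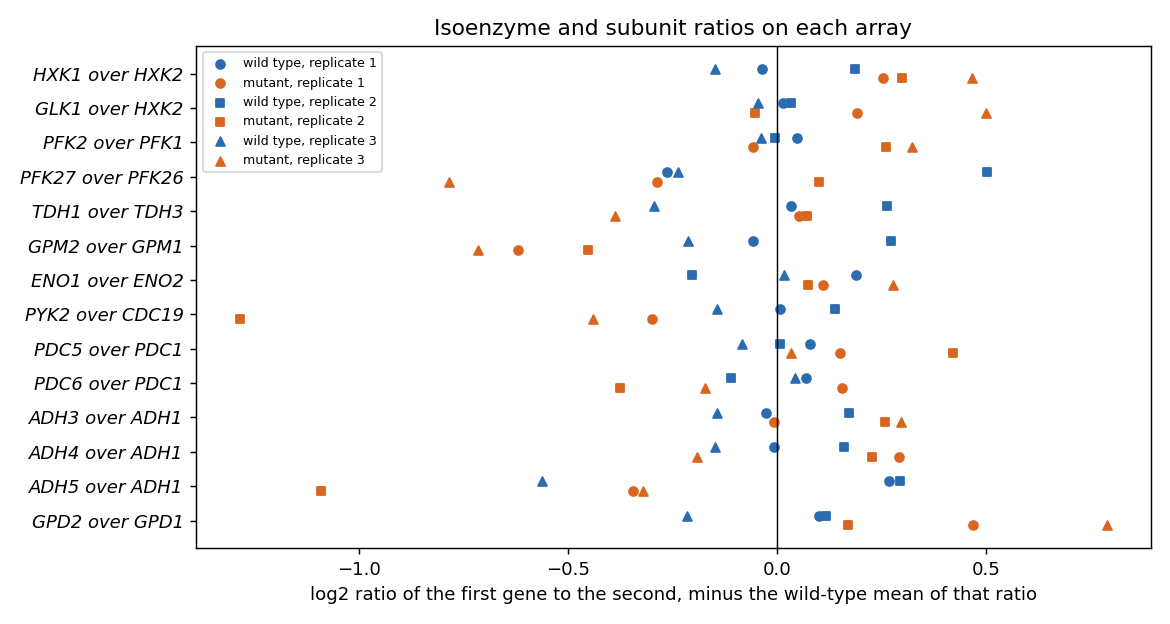
Log2 ratio of the first gene to the second on each array, minus the wild-type mean of that ratio, for the 14 pairs tested (blue wild type, orange mutant, marker shape the replicate number). The mutant points lie apart from the wild-type points for HXK1 over HXK2, GPM2 over GPM1, PYK2 over CDC19 and GPD2 over GPD1.

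Genes of neighbouring routes were counted in 7 further lists of 43 genes, all of them tested, of which 0 were called in either direction with limma. Over all probe sets 1.35% were called lower and 0.896% higher. At an unadjusted p under 0.05, 3 of the 43 were lower and 3 higher, beside 8.92% and 10.7% of all probe sets. In the glycerol list, GUT1, the glycerol kinase, had means of 187.5 ± 25.8 and 310.9 ± 43.4 (SD, n = 3) in wild type and mutant and differed by 0.68 (SE 0.16, limma adjusted p = 0.0613). Among genes of acetate formation, ALD6, the cytosolic acetaldehyde dehydrogenase, differed by -0.51 (SE 0.16, limma adjusted p = 0.123). In gluconeogenesis, the reverse route, MDH2, a cytosolic malate dehydrogenase, differed by -0.42 (SE 0.12, limma adjusted p = 0.108). In the pentose phosphate pathway SOL4, a 6-phosphogluconolactonase, differed by -0.28 (limma adjusted p = 0.277). The medians of the 7 lists ran from -0.20 (acetaldehyde and acetate) to 0.02 (other alcohol dehydrogenases). The pyruvate dehydrogenase gene PDX1 differed by 0.24 (limma adjusted p = 0.350), and SFA1, of the other alcohol dehydrogenases, by 0.36 (limma adjusted p = 0.245). Of the regulators, ABF1, a general regulatory factor, differed by -0.28 (limma adjusted p = 0.403). RAP1, the partner of Gcr1 and Gcr2, was named after its values were seen and differed by -0.16 (limma adjusted p = 0.539).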

How the data were processed

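Total RNA of 6 yeast cultures (about 20 ug each, harvested at an optical density of 0.5 to 0.7 per the labels) was measured on Affymetrix arrays, 3 per group, with groups and replicate numbers from the sample titles. The series design calls them replicate cultures. The authors deposited linear intensities, 1 per probe set; the submitters' processing notes name MAS5, and the sources used here do not state its version. No detection calls were used.

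Of 9335 probe sets, 60 controls were left out. All arrays were brought to the same 2% trimmed mean (500). Those probe sets averaging at least 50 after scaling, 6808 in number, were tested with limma 3.58.1 in R 4.3.3 (lmFit, then eBayes with an intensity trend). The values tested were log2(signal + 16), and p-values were adjusted by Benjamini-Hochberg across the 6808. The log2 scale with an offset understates the change of dim genes. Precision is limited by having 3 arrays per group, and the SE of a difference had a median of 0.16. Exactly 1 gene was annotated to 6504 probe sets, several to 328 and none to 2503, and all 32 listed genes matched the gene table. Every listed gene is named. Of 7 neighbouring lists (gluconeogenesis, pentose phosphate, acetaldehyde and acetate, other alcohol dehydrogenases, glycerol, pyruvate dehydrogenase, regulators) the text names genes called and otherwise the one with the smallest p in each. The listed genes, lists and tests were chosen with earlier results of these data known. Isoenzyme ratios were tested by exact permutation over the 6 arrays. The fit was tested on simulated data of 6808 probe sets, where it recovered 96.8% of 63 probe sets changed by 2 on the log2 scale, 75.4% of 69 changed by 1 and 8.82% of 68 changed by 0.5. Alternatives were other scalings, offsets, filters, a fit without the intensity trend, a block for the replicate number, and leaving out each array. Groups of 3 arrays are too small for an outlier test, which was not made.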

Additional observations from a re-analysis of the deposited data

How the results depend on the processing

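The sign of the difference stayed the same for 19 of the 31 genes under every alternative of the 15 that gave a value, and turned under at least 1 for 12. GPM2, ADH5 and TYE7 had no value with a filter of 200. The count of genes called was 1 on equal trimmed means, 3 with the intensities as deposited (GPM2, PFK1 and PYK2), 2 with the replicate block (GPM2 and PYK2) and 0 with no signal filter or with a filter of 200, which leaves GPM2 untested. Leaving out an array gave 0 to 1. For all probe sets, the calls were 61 higher and 92 lower, against 31 and 372 as deposited, 108 and 147 with the replicate block, 33 and 54 with no filter, 41 and 57 with a filter of 200, and over single arrays left out 13 to 124 higher and 23 to 140 lower. The median difference of the 31 genes was -0.38 as deposited, where all probe sets had a median of -0.22, against 0.02 on equal trimmed means. The gap between these medians was -0.17 as deposited and -0.15 on equal trimmed means. Leaving out an array gave a median of -0.20 to -0.08. The deposited values were multiplied by 1 common factor, so that the offset and filter kept their meaning.

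On the deposited scale the differences of ADH3, ADH4, GCR2, GPD2, PDC5 and PFK27 were -0.17, -0.24, -0.028, -0.14, -0.15 and -0.20, in place of values above 0. The median of all probe sets moved as well, from 0.02 on equal trimmed means to -0.22 as deposited. With quantile normalization ADH4, PFK27, ENO1 and TDH3 stood at -0.032, -0.0056, 0.044 and 0.0502, and with median scaling ADH4 stood at -0.0082. Leaving out an array moved ADH3 between -0.015 and 0.19, ADH4 between -0.11 and 0.19, ENO1 between -0.20 and 0.037, GCR1 between -0.12 and 0.10, GPD2 between -0.0197 and 0.16, HXK1 between -0.13 and 0.0125, PDC5 between -0.054 and 0.27, PFK27 between -0.14 and 0.17, TDH1 between -0.26 and 0.013, TDH3 between -0.17 and 0.014 and TYE7 between -0.42 and 0.26. The cause of these turns was not tested.

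With the replicate block, PYK2 was called (limma adjusted p = 0.0353) and GPM2 kept its call (0.0357). The same-numbered arrays of the groups had correlations of their deviations of 0.042 to 0.157, and 5 of the 6 arrays correlated best with their own number. Arrays of different numbers had correlations of -0.131 to 0.048. The labels state no pairing, so the main fit had no block, but these values do not exclude one. The isoenzyme ratios without overlap numbered 4, 3 with a filter of 200 (GPM2 untested), and 5 to 7 when an array was left out, since fewer arrays overlap less. The sign held for 13 of the 14 ratios. That of TDH1 to TDH3 ranged from -0.24 to 0.062 without 1 array. The 2 further single-gene probe sets, of ADH4 and GCR2, lay below the filter and gave no alternative value.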
